A study of Mus musculus with 10 samples.

Results

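The 53 ribosome biogenesis factors described here are a list of genes whose proteins act on ribosomal RNA and on pre-ribosomal particles in the nucleolus. They were found by symbol among the 23420 gene rows of each count table, and all 53 had a row and passed the low-count filter, which left 12796 genes for testing. Gene expression was measured by RNA-seq of liver from male C57BL/6 mice aged 4 months, for which no genotype beyond the strain is given. The labels speak of 5 pairs of mice, and 5 libraries are from mice that ate standard chow and 5 from mice fasted for 48 hours with water freely available. The fasted mice are called starved, as in the sample names, and libraries are numbered 1 to 5 within each group.

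Ribosomes are built in the nucleolus, where RNA polymerase I transcribes a long precursor of ribosomal RNA. Small nucleolar ribonucleoproteins (snoRNPs) modify this precursor at sites that their guide RNAs select, a large assembly called the small subunit (SSU) processome folds and cuts the part that becomes the small subunit, and other factors mature the large subunit. The pathway is known for its high cost to the cell and for its dependence on growth signals such as MYC and mTORC1, and liver is a tissue in which food intake alters protein synthesis.

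In starved liver 41 of the 53 factors rose and 0 fell, at an adjusted p under 0.05 (quasi-likelihood test of edgeR, Benjamini-Hochberg adjustment across all 12796 genes). Among all genes tested, 18.6% were called higher and 20.0% lower, 38.6% in either direction. At an unadjusted p under 0.05, 43 factors were higher and 0 lower, and the share of all genes at that cut is not given here. DESeq2's Wald test called 43 factors higher and 0 lower, and 22.3% of all genes tested higher. The fitted fold change was above 0 for 52 of the 53, with a median log2 fold change (starved over fed) of 0.59. The lowest value was −0.07 for Dkc1 and the highest 1.86 for Gar1, which had few reads and passed the low-count filter mainly through starved libraries. The median over all genes tested was 0.00346. Scaling by library totals alone, in place of TMM, moved that median to −0.15. The calls over all genes went from 2379 higher and 2555 lower to 1490 and 3490. With this scaling 31 factors were higher and 0 lower, where 11.6% of all genes tested were higher. Of the 31, 7 rose at least 2-fold, a count whose share over all genes is not given here. All 5 starved libraries lay above all 5 fed libraries for 34 factors and below them for 0, whereas 13.2% of all genes tested lay above and 16.7% below. A change of at least 2-fold upward was called for 12 factors, and for 5.44% of genes tested. In bulk liver RNA, fewer or more cells of a type and less or more RNA per cell cannot be told apart.

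The factors were highest in starved libraries 2 and 4, which differed from the other 3 in many genes. Taken over the 53 factors, the median of log2(CPM + 0.5) minus the mean of the fed libraries was 0.48, 0.99, 0.35, 0.88 and 0.43 in starved libraries 1 to 5. In the fed libraries it lay between −0.04 and 0.11. Levels are given as CPM, reads of a gene relative to library size, with sizes scaled by TMM (trimmed mean of M values). Starved libraries 2 and 4 were the highest pair among the starved for 40 of the 53 factors, and for 24.7% of all genes tested. Without these libraries 38 factors were called higher and 0 lower, where 20.2% and 20.7% of 13080 genes were, and the median log2 fold change was 0.44. Of the 41 calls, 36 were kept without them, those of Fbl, Gar1, Nolc1, Noc4l and Nol9 were lost, and Nop10 and Wdr12 were called in addition. The number of factors called with at least a 2-fold rise went from 12 to 1, Gnl2, without libraries 2 and 4 (3.77% of genes). It went to 6 without library 2 alone, where the share of genes is not given here.

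The factors together took 0.124%, 0.116%, 0.110%, 0.117% and 0.115% of the reads assigned to genes in fed libraries 1 to 5, and 0.148%, 0.186%, 0.142%, 0.198% and 0.135% in starved libraries 1 to 5. All starved libraries were above all fed libraries in this share. Reads assigned to genes came to 23.0 M to 29.9 M per fed and 18.2 M to 28.1 M per starved library (M, mega). The spread was wider in starved liver: the coefficient of variation over 5 libraries was larger than in fed liver for 49 of the 53 factors, with a median of 25.3% against 11.1%. Over all genes tested it was 23.3% against 11.8%.

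**Figure D1:**
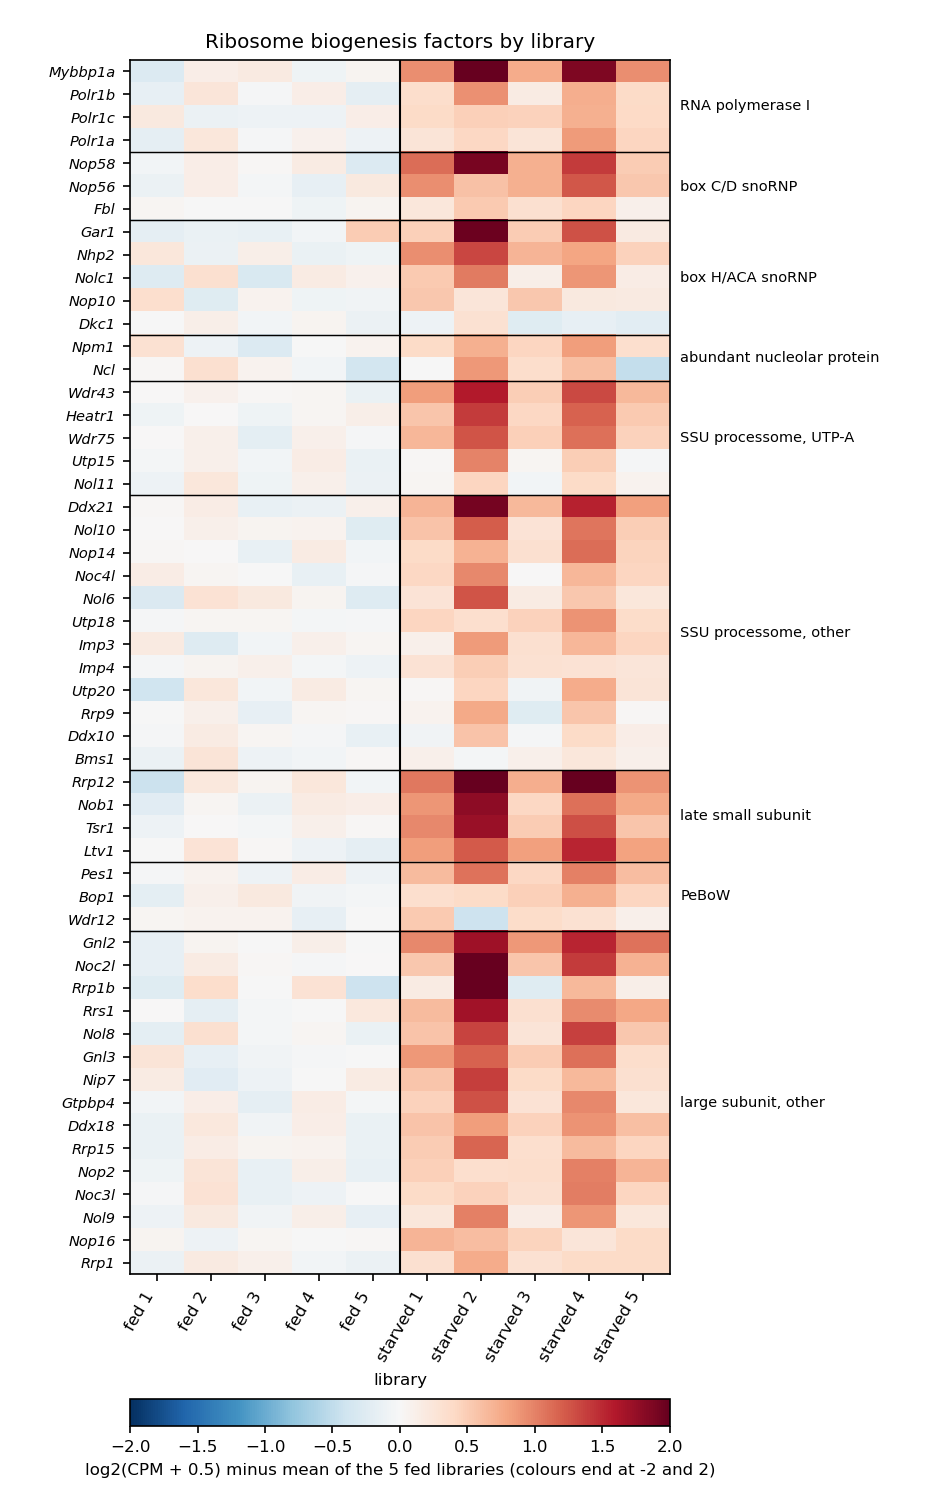
Heat map of the 53 ribosome biogenesis factors (rows, grouped by role) in the 10 libraries (columns), as log2(CPM + 0.5) minus the mean of the 5 fed libraries. Most rows are red in all 5 starved libraries and darkest in starved libraries 2 and 4, where the median over rows was 0.99 and 0.88, and Dkc1 is the row with a negative fold change.

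Marker genes of other liver cells were read in the same libraries. The summed level of 8 Kupffer cell and macrophage markers was 370 to 604 CPM in fed and 141 to 303 CPM in starved libraries, with 7 of 8 lower by edgeR's test. For 8 genes of dividing cells it was 46.9 to 60.6 CPM in fed and 37.3 to 56.5 CPM in starved libraries, with 6 of 8 lower and 0 higher. Most of this sum was Pcna, named after its value was seen (mean 37.0 CPM in fed liver, 40.4 CPM after starvation, not called). The sum therefore says little about the 6 lower genes. Of 6 neutrophil markers, 5 had a row and 3 passed the low-count filter, and these 3 were called higher. One of them, Retnlg, named after its value was seen, was low when fed (mean 0.253 CPM, 2.24 CPM after starvation). It passed the filter mainly through starved libraries, so its call is no independent evidence of a rise. The neutrophil sums were 1.76 to 3.65 CPM in fed libraries. They were 19.1 and 22.2 CPM in starved libraries 2 and 4 and 2.78 to 9.39 CPM in the other starved libraries. Of 6 cholangiocyte markers 5 were tested and 1 was lower, Spp1, named after its value was seen, which made up most of the sum (mean 47.2 CPM in fed liver, 24.2 CPM after starvation). That sum was 46.5 to 57.4 CPM in fed libraries, 16.1 and 15.03 CPM in starved libraries 2 and 4 and 35.8 to 40.8 CPM in the other starved libraries. Of 8 endothelial markers 3 were lower and 1 higher, with sums of 255 to 298 CPM in fed and 212 to 276 CPM in starved libraries. Of 8 stellate cell and fibroblast markers 2 were lower and 1 higher, with sums of 424 to 487 and 427 to 624 CPM. Most of that sum was the higher marker, Dcn (mean 263 CPM in fed liver, 370 CPM after starvation). The 2 lower ones were Col3a1 (28.9 to 5.78 CPM) and Col1a1 (2.27 to 1.10 CPM). These were named after their values were seen. B cell markers (4 with a row, 1 lower) summed to 2.98 to 4.58 and 0.641 to 3.59 CPM, and T and NK cell markers (5 with a row, 3 tested, 0 called) to 2.55 to 3.55 and 0.641 to 4.05 CPM. Of 7 hepatocyte markers with a row 2 were lower and 1 higher, and they summed to 89984 to 134527 CPM in fed and 110918 to 162269 CPM in starved libraries. Most of that sum was Alb (mean 82740 CPM in fed liver, 94215 CPM after starvation, not called). The lower ones were Ttr (6927 to 3754 CPM) and Serpina1c (1728 to 1067 CPM), and the higher one was Apoa1 (6325 to 12591 CPM). These 4 were also named after their values were seen. No marker with a row was at 0 in all libraries. The part of these shifts in the factors' changes was not tested.

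Of the 4 factors of ribosomal RNA gene transcription, all rose. Mybbp1a, a nucleolar protein that binds MYB and acts on transcription of ribosomal RNA genes, stood at 14.9, 20.1, 20.7, 17.2 and 18.9 CPM in fed libraries 1 to 5 and at 35.2, 74.6, 30.98, 67.7 and 35.2 CPM in starved libraries 1 to 5. Every starved library was above every fed one, and libraries 2 and 4 were nearly level with each other and well above the other 3. The log2 fold change was 1.41 ± 0.25 (SE; adjusted p = 0.00132, edgeR), and 0.90 without starved libraries 2 and 4. The gene lies on chromosome 11 (72441355 to 72451768, mm10).

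Polr1b, one of the large subunits that form the active centre of RNA polymerase I, had 15.4, 20.7, 17.1, 19.2 and 15.3 CPM in fed and 22.3, 33.2, 19.6, 29.2 and 22.8 CPM in starved libraries. The groups overlapped, since starved library 3 was below fed library 2, and the log2 fold change was 0.54 ± 0.16 (SE). This call was lost without fed library 5 (adjusted p = 0.0503, edgeR). Polr1c, a subunit that RNA polymerase III also uses, had 31.3, 25.02, 25.3, 25.3 and 30.1 CPM in fed and 35.9, 38.3, 37.9, 44.9 and 35.99 CPM in starved libraries, with no overlap (0.49 ± 0.11, SE). Per kilobase of annotated exon it was the most abundant of the 4, at 12.03 ± 1.32 CPM per kb in fed and 16.9 ± 1.62 CPM per kb in starved liver (SD, n = 5). Polr1a, the largest subunit of the enzyme, rose by 0.46 ± 0.14 (SE) without overlap. The ratio of Polr1a to Polr1b within a library differed between the groups by −0.07 ± 0.12 on the log2 scale (SE; exact two-sided permutation p = 0.825), so no unequal change of the large subunits was detectable. With library totals alone as scaling, the calls of Polr1a (0.31, adjusted p = 0.0935, edgeR) and Polr1c (0.33, adjusted p = 0.0536, edgeR) were lost and those of Polr1b and Mybbp1a were not.

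The core proteins of box C/D snoRNPs, which carry out methylation of ribosomal RNA, all rose. Nop58, a scaffold of the particle, was at 15.3, 17.5, 16.1, 17.7 and 13.04 CPM in fed and 34.9, 60.4, 26.3, 42.3 and 22.8 CPM in starved libraries. Nop56, its partner scaffold, was at 17.1, 20.6, 18.2, 16.7 and 21.4 CPM in fed and 35.9, 28.5, 30.8, 44.99 and 27.4 CPM in starved libraries. Fbl, fibrillarin, the methyltransferase itself, was at 8.18, 7.92, 7.95, 7.47 and 8.25 CPM in fed and 9.34, 11.7, 10.1, 10.9 and 8.58 CPM in starved libraries. For each of the 3 genes the lowest starved library lay above the highest fed library, closely so for Fbl. The log2 fold changes were 1.23 ± 0.23 for Nop58, 0.84 ± 0.15 for Nop56 and 0.35 ± 0.12 for Fbl (SE), and they were 0.84, 0.76 and 0.25 without starved libraries 2 and 4. The call of Fbl was lost in that fit (adjusted p = 0.0648, edgeR), with library totals alone as scaling, with a replicate block (the library number as a term of the model), without a low-count filter, and on leaving out any 1 fed library or starved library 3 or 4.

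Ratios within a library do not depend on scaling, and 12 ratios between partners of a complex were compared by exact two-sided permutation tests over the libraries, adjusted over the 12. These pairs were chosen after the values were seen, so their p-values are no independent evidence of a difference. The smallest p that 5 against 5 libraries allow is 0.00794. The ratio of Nop58 to Fbl was higher in starved liver by 0.81 ± 0.21 (log2, SE; exact permutation p = 0.00794, adjusted 0.0476), with 5 of 5 starved libraries above all fed libraries. That of Nop56 to Fbl was higher by 0.48 ± 0.15 (exact permutation p = 0.0238, adjusted 0.0714), with 4 of 5 above. Nop58 and Nop56 did not differ detectably from each other (0.33 ± 0.28, exact permutation p = 0.349). The ratio of Nop58 to Fbl was 0.57 without starved libraries 2 and 4, with the smallest p that 5 against 3 libraries allow (exact permutation p = 0.0179), a design in which the adjustment was not passed by any of the 12. On leaving out any 1 fed library its exact permutation p was 0.0238, above the smallest possible, and it did not pass the adjustment.

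Of the 53 factors, 7 contain annotated snoRNA genes on their own strand: Nop56, Nop58, Dkc1, Ncl, Wdr43, Tsr1 and Gnl3, with 21 snoRNAs in all (GENCODE, mm10). This was 13.2% of the factors and 1.74% of 11691 tested protein-coding genes. Of the 7 host genes, 5 rose, beside 41 of all 53 factors and 18.6% of all genes tested, so hosts did not stand out among the factors. Nop56 and Nop58 hold guide RNAs of the box C/D class, the class that the proteins they encode bind. The sequences below show 5 of these RNAs as they stand in GENCODE's transcripts, written with T, with the letters TGATGA of box C (in the first 25 bases) and CTGA of box D (in the last 15 bases) in capitals. Both exact strings were found in 8 of the 21 RNAs, and the 5 with a Snord name are shown.
Snord110, in Nop56: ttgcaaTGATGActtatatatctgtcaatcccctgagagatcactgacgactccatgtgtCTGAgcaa
Snord11, in Nop58: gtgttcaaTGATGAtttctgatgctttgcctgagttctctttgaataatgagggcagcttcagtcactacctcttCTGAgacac
Snord82, in Ncl: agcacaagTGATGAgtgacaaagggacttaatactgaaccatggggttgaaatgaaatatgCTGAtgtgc
Snord92, in Wdr43: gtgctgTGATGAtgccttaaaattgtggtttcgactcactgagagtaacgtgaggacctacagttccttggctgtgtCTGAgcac
Snord69, in Gnl3: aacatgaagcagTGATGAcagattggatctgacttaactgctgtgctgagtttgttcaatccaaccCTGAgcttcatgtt
Snord110 lies at chr2:130275506-130275573 on the plus strand, Snord11 at chr1:59704790-59704873 on the plus strand, Snord82 at chr1:86356261-86356330 on the minus strand, Snord92 at chr17:71631281-71631365 on the plus strand and Snord69 at chr14:31014287-31014366 on the minus strand (mm10). The capitals fall near the ends of each RNA, where the boxes of this class pair up. Of the 21 snoRNAs, 11 had a row of their own in the count tables, with 0 to 26 reads per library, so their levels are not compared here.

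Of 5 factors grouped here with the box H/ACA snoRNP, which converts uridine to pseudouridine, 3 rose and 2 were not called. Dkc1, dyskerin, the pseudouridine synthase, stood at 17.3, 18.9, 16.7, 18.04 and 15.98 CPM in fed and 16.1, 21.6, 14.6, 15.4 and 14.95 CPM in starved libraries. Starved library 2 was the highest of all 10, whereas the other 4 starved libraries lay at the lower edge of the fed range or under it (−0.074 ± 0.12, SE; adjusted p = 0.659, edgeR). Nhp2, a small core protein that binds the RNA, was at 20.6, 16.1, 19.2, 16.01 and 16.5 CPM in fed and 34.04, 45.3, 28.4, 30.6 and 24.3 CPM in starved libraries. It rose by 0.88 ± 0.16 (SE) without overlap, and by 0.73 without starved libraries 2 and 4. The ratio of Nhp2 to Dkc1 within a library was higher in starved liver by 0.94 ± 0.12 (log2, SE; exact permutation p = 0.00794, adjusted over 12 ratios 0.0476), with 5 of 5 starved libraries above all fed libraries. It was 0.90 without starved libraries 2 and 4 and 0.88 to 1.01 on leaving out each library, and the exact permutation p was the smallest that the numbers of libraries allow in each of these. On leaving out any 1 fed library this ratio did not pass the adjustment over the 12 (adjusted exact permutation p = 0.0714 to 0.0952). The pair was chosen after the values were seen, so its p-values are no independent evidence of a difference.

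Nop10, the smallest core protein, was the most abundant member of this group per exon length (50.9 ± 7.95 CPM per kb in fed liver, SD, n = 5). Its levels were 70.5, 47.4, 58.7, 52.5 and 53.1 CPM in fed and 81.5, 66.5, 81.3, 64.2 and 63.5 CPM in starved libraries, with fed library 1 above 3 of the starved libraries. It was not called with all libraries (0.34 ± 0.13, SE; adjusted p = 0.0542, edgeR) but was called without starved libraries 2 and 4 (0.44, adjusted p = 0.0187, edgeR), which were not its highest, and also with all libraries under DESeq2's size factors, DESeq2's Wald test and a replicate block. Gar1, the remaining core protein, was near the detection floor, with 6 to 16 reads in fed and 7 to 49 reads in starved libraries. Its levels were 0.211, 0.232, 0.221, 0.275 and 0.644 CPM in fed and 0.623, 2.62, 0.639, 1.45 and 0.406 CPM in starved libraries, with fed library 5 above 3 of the starved libraries. The log2 fold change of 1.86 ± 0.53 (SE) was the largest of all factors, rested on few reads and on starved libraries 2 and 4, and was 0.87 and not called without them (adjusted p = 0.108, edgeR). Gar1 passed the low-count filter mainly through starved libraries, where it was high, so its call is no independent evidence of a rise. It is included in the 41 calls and in the 12 rises of at least 2-fold. Nolc1, a chaperone of snoRNPs, had 10.9, 16.5, 10.5, 14.7 and 13.9 CPM in fed and 18.99, 27.6, 14.2, 24.5 and 14.6 CPM in starved libraries. The groups overlapped, and the call (0.59 ± 0.21, SE) was lost without starved libraries 2 and 4 (0.28) and on leaving out any of 7 single libraries.

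**Figure D2:**
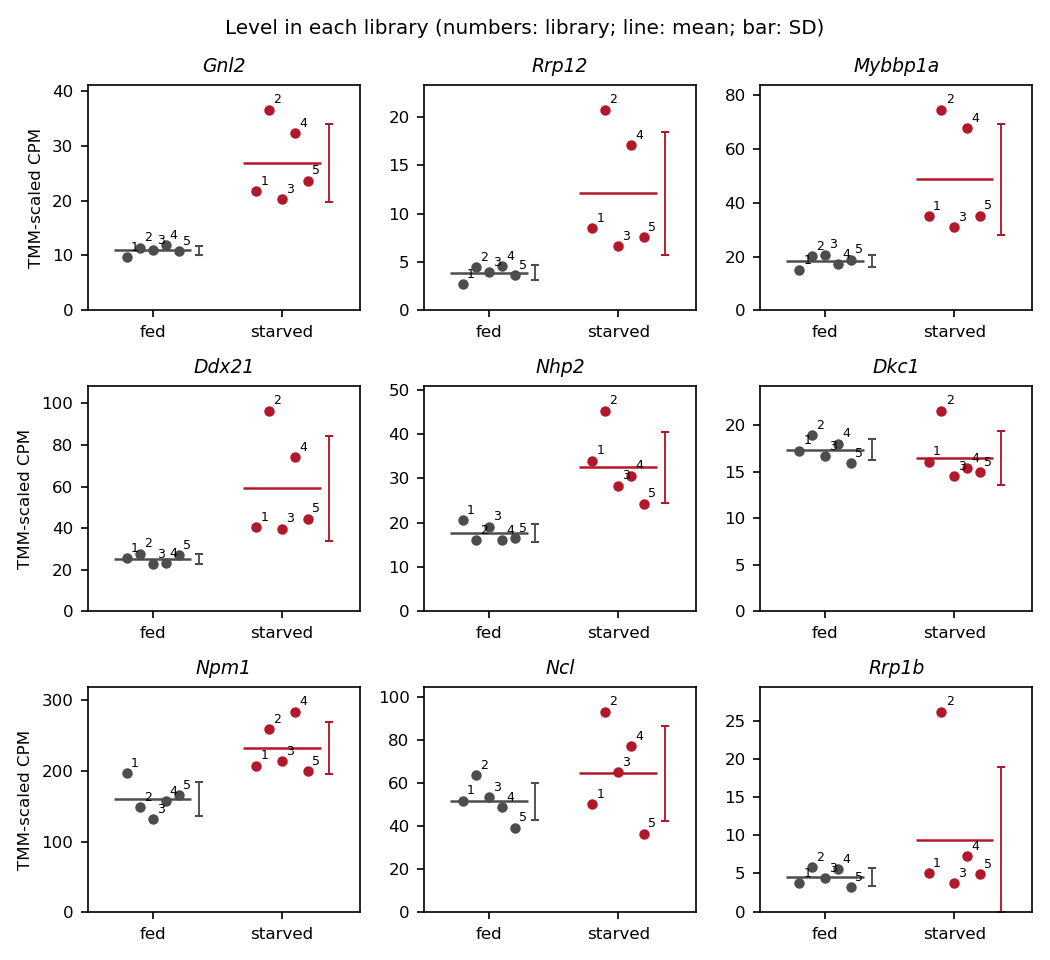
TMM-scaled CPM (vertical axis, starting at or just below 0) of 9 factors in the 5 fed and 5 starved libraries; points carry the library number, lines are means and bars SD. Gnl2, Rrp12, Mybbp1a, Ddx21, Nhp2 and Npm1 show no overlap between groups, Dkc1 and Ncl overlap, and Rrp1b is high in starved library 2 alone (26.2 CPM).

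Of the abundant nucleolar proteins, Npm1, nucleophosmin, a chaperone of pre-ribosomes and histones, was at 196, 148, 131, 157 and 166 CPM in fed and 207, 258, 213, 283 and 199.7 CPM in starved libraries. It rose by 0.54 ± 0.14 (SE) with no overlap, although fed library 1 came close to starved library 5, and the call was lost with library totals alone as scaling. It was the most abundant factor per exon length, at 59.9 ± 9.04 CPM per kb in fed and 87.2 ± 13.7 CPM per kb in starved liver (SD, n = 5). Ncl, nucleolin, which binds ribosomal RNA precursors, was at 51.9, 63.8, 53.6, 49.1 and 39.4 CPM in fed and 50.5, 93.3, 65.3, 77.2 and 36.6 CPM in starved libraries. Starved libraries 2 and 4 were the highest and starved library 5 the lowest of all 10, and the difference was not called (0.32 ± 0.22, SE; adjusted p = 0.263, edgeR) and was 0.0016 without libraries 2 and 4. Reads that map equally to pseudogene copies are not counted, and Npm1, a gene with known pseudogenes, is uncertain to that extent.

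The SSU processome begins with a module called UTP-A, which also acts on transcription of the precursor. Of its 5 members here 3 rose, each without overlap. Wdr43, a WD-repeat protein, was at 26.4, 27.9, 26.6, 26.9 and 23.9 CPM in fed and 47.5, 79.6, 37.2, 66.1 and 41.4 CPM in starved libraries. Heatr1, a large repeat protein, was at 18.8, 20.1, 18.9, 20.7 and 21.8 CPM in fed and 29.7, 53.5, 26.8, 46.03 and 29.1 CPM in starved libraries. Wdr75, another WD-repeat protein, was at 15.2, 16.4, 13.2, 16.3 and 14.9 CPM in fed and 24.3, 36.9, 21.4, 32.9 and 21.2 CPM in starved libraries. In all 3 genes starved libraries 2 and 4 were the highest, and the log2 fold changes were 1.05 ± 0.19, 0.88 ± 0.19 and 0.85 ± 0.17 (SE) with all libraries and 0.70, 0.53 and 0.57 without those. Utp15 and Nol11, of the same module, were not called (0.37 ± 0.20 and 0.18 ± 0.13, SE) and had values of 0.032 and 0.033 without libraries 2 and 4. Of the exon bases of Nol11, 8.16% are also covered by an antisense gene. Wdr43 lies on chromosome 17 (71615895 to 71659031, mm10).

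Of 12 other factors grouped here with the SSU processome, not all of them parts of it, 7 rose and 5 were not called. Ddx21, an RNA helicase found with RNA polymerase I and with snoRNAs, was at 25.5, 27.8, 22.5, 23.1 and 26.97 CPM in fed and 40.7, 96.5, 39.8, 74.1 and 44.6 CPM in starved libraries. Its lowest starved library was well above its highest fed one, and it rose by 1.23 ± 0.24 (SE; 0.75 without starved libraries 2 and 4). Nol10 was at 4.00, 4.27, 4.16, 4.20 and 3.30 CPM in fed and 6.11, 9.83, 4.92, 8.89 and 5.80 CPM in starved libraries and rose by 0.83 ± 0.20 (SE). Nop14, which binds the assembling small subunit, was at 9.31, 9.18, 8.13, 10.3 and 8.78 CPM in fed and 12.02, 15.1, 11.5, 20.2 and 12.6 CPM in starved libraries and rose by 0.65 ± 0.16 (SE), also without overlap, and an antisense gene covers 5.28% of its exon bases. Its binding partner Noc4l was at 4.60, 4.24, 4.08, 3.68 and 4.03 CPM in fed and 5.68, 8.50, 4.13, 6.79 and 5.74 CPM in starved libraries. Those groups overlapped through starved library 3, and the call (0.58 ± 0.18, SE) was lost without starved libraries 2 and 4 (0.35) and on leaving out fed library 3, 4 or 5. The ratio of Nop14 to Noc4l did not differ detectably between the groups (0.07 ± 0.16, log2, SE; exact permutation p = 0.675).

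Imp3 and Imp4 sit together on the U3 snoRNA, the guide RNA of the processome. Imp3, the most abundant of these 12 per exon length (36.8 ± 4.09 CPM per kb in fed liver, SD, n = 5), was at 38.2, 28.3, 32.5, 36.1 and 34.8 CPM in fed and 36.5, 61.6, 42.2, 53.8 and 45.7 CPM in starved libraries. Only starved library 1 was below the highest fed library, and the log2 fold change was 0.50 ± 0.15 (SE). Imp4 rose by 0.33 ± 0.09 (SE) without overlap, and Utp18, of the UTP-B module, by 0.53 ± 0.12. The ratio of Imp3 to Imp4 did not differ detectably (0.15 ± 0.15; exact permutation p = 0.325). The calls of Imp3 and Imp4, but not that of Utp18, were lost with library totals alone as scaling, and that of Imp3 also with a replicate block.

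The members of this group that were not called were Nol6 (0.55 ± 0.22, SE), Utp20 (0.30 ± 0.17), Rrp9, a protein of the U3 particle (0.29 ± 0.18), Ddx10, a helicase (0.22 ± 0.14), and Bms1, the GTPase of the processome (0.10 ± 0.11). Without starved libraries 2 and 4, their log2 fold changes were 0.23, 0.079, −0.026, 0.027 and 0.12. Bms1 was at 13.3, 17.6, 13.6, 13.98 and 14.8 CPM in fed and 15.7, 14.2, 15.7, 17.2 and 15.8 CPM in starved libraries, with overlap, and its log2 fold change turned to −0.053 with library totals alone. Nol6 was called by DESeq2's Wald test and with a replicate block.

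All 4 factors of late small subunit maturation rose without overlap, each more than 2-fold. Rrp12, a factor of subunit export and late processing, was at 2.70, 4.51, 3.97, 4.58 and 3.66 CPM in fed and 8.52, 20.7, 6.64, 17.1 and 7.53 CPM in starved libraries. Nob1, the endonuclease that makes the mature end of the small subunit RNA, was at 3.72, 4.57, 4.05, 5.03 and 4.87 CPM in fed and 8.60, 16.5, 6.05, 10.1 and 7.82 CPM in starved libraries. Tsr1, an assembly factor related to GTPases, was at 8.71, 9.41, 9.16, 10.2 and 9.54 CPM in fed and 18.6, 32.2, 13.5, 23.8 and 14.03 CPM in starved libraries. Starved library 2 was the highest and starved library 3 the lowest starved library in these 3 genes. Ltv1, which leaves the particle late and was the most abundant of the 4 per exon length (3.86 ± 0.5001 CPM per kb in fed and 8.31 ± 2.03 CPM per kb in starved liver, SD, n = 5), was at 8.89, 10.8, 9.09, 8.23 and 7.77 CPM in fed and 16.3, 21.4, 16.03, 26.6 and 15.9 CPM in starved libraries, highest in library 4. The log2 fold changes were 1.64 ± 0.32 for Rrp12, 1.14 ± 0.24 for Nob1, 1.12 ± 0.22 for Tsr1 and 1.10 ± 0.17 for Ltv1 (SE). Without starved libraries 2 and 4 they were 0.98, 0.77, 0.74 and 0.86, all called and all under 2-fold. With library totals alone as scaling, Rrp12 was at 1.46, Nob1 at 0.96, Tsr1 at 0.94 and Ltv1 at 0.95, all called, so that Rrp12 alone was above 2-fold. Of the exon bases of Tsr1, 32.3% are also covered by Srr on the opposite strand, and the strand setting of the counting is not given in the sources used here. Rrp12 lies on chromosome 19 (41862851 to 41896173) and Nob1 on chromosome 8 (107412486 to 107425051, mm10).

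**Figure D3:**
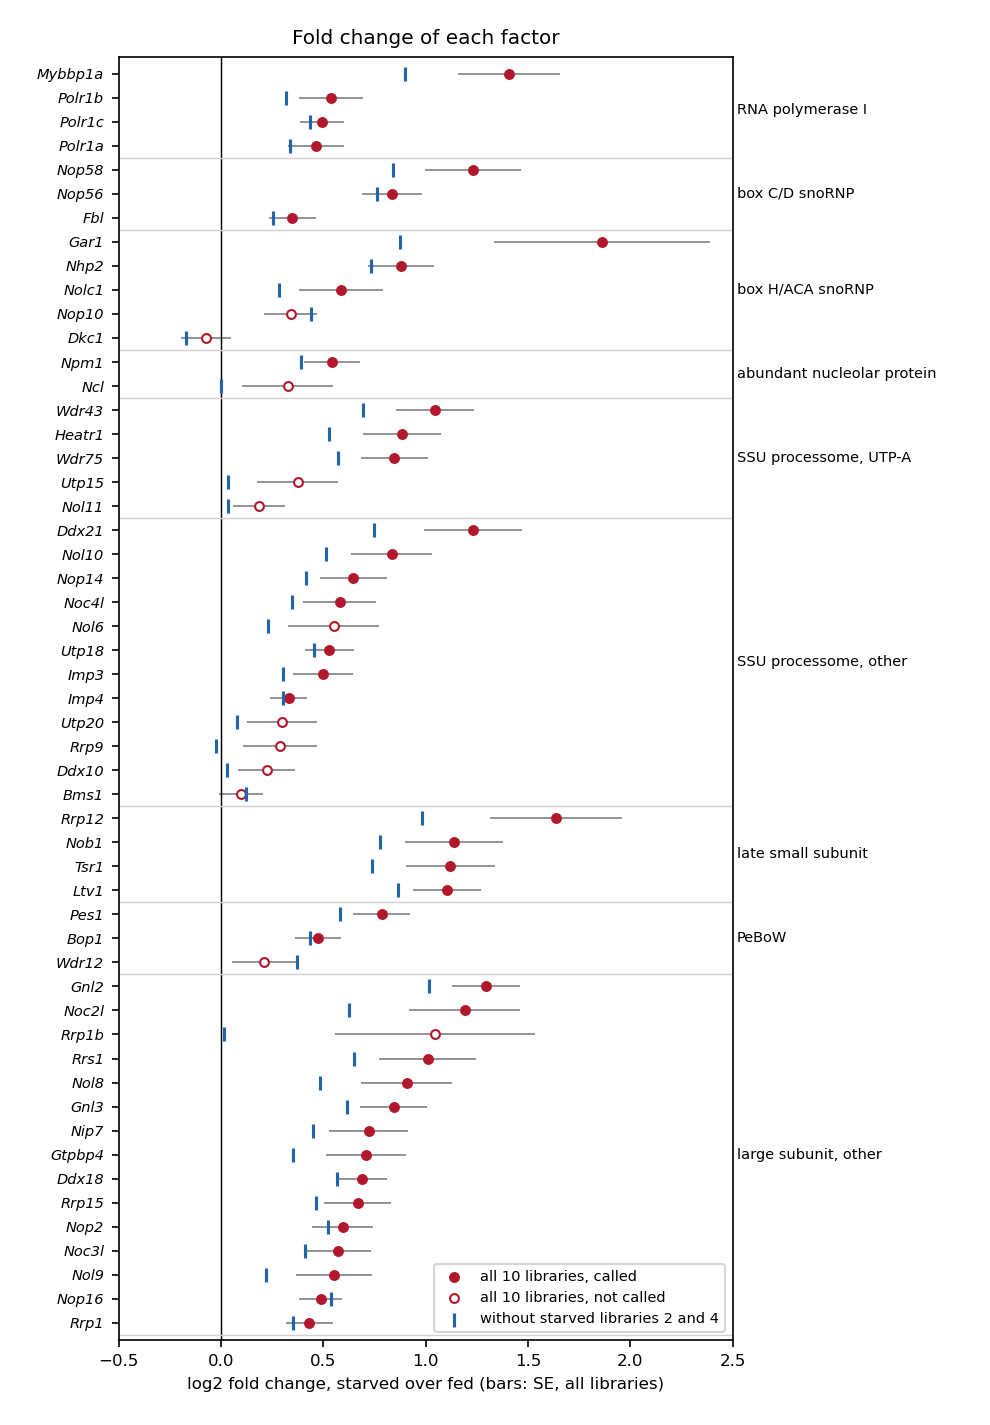
Log2 fold change (starved over fed) of each factor, by role, with SE bars; filled points were called at an adjusted p under 0.05, open points were not, and blue ticks give the fit without starved libraries 2 and 4. All but Dkc1 lie above 0 with all libraries, and most ticks lie left of their points, with Nop10, Wdr12, Bms1 and Nop16 to the right.

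The large subunit factors Pes1, Bop1 and Wdr12 form the PeBoW complex, which is needed for processing of the large subunit RNA. Pes1 was at 20.4, 21.9, 19.3, 23.1 and 19.4 CPM in fed and 32.4, 44.9, 27.7, 42.3 and 32.2 CPM in starved libraries. Bop1 was at 19.6, 24.4, 25.97, 21.6 and 22.02 CPM in fed and 28.6, 29.7, 31.6, 37.3 and 30.7 CPM in starved libraries. Both rose without overlap, by 0.79 ± 0.14 and 0.47 ± 0.11 (SE). Wdr12 was at 18.3, 18.6, 18.5, 15.7 and 17.6 CPM in fed and 25.6, 13.1, 22.9, 21.9 and 19.1 CPM in starved libraries. It was lowest of all 10 in starved library 2, the library in which Pes1 was highest, and above all fed libraries in the other 4 starved libraries. It was not called with all libraries (0.21 ± 0.16, SE; adjusted p = 0.301, edgeR) and was called without starved libraries 2 and 4 (0.37, adjusted p = 0.0164, edgeR). The ratio of Pes1 to Wdr12 was higher in starved liver by 0.59 ± 0.28 (exact permutation p = 0.0476, adjusted over 12 ratios 0.114), and this did not pass the adjustment.

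Of the 15 other large subunit factors, 14 rose. Gnl2, a nucleolar GTPase of the pre-ribosome, was at 9.69, 11.4, 10.9, 11.9 and 10.8 CPM in fed and 21.7, 36.6, 20.3, 32.2 and 23.6 CPM in starved libraries. The lowest starved library was far above the highest fed library, and the log2 fold change of 1.29 ± 0.17 (SE; adjusted p = 0.000239, edgeR) had the smallest adjusted p of all factors. Without starved libraries 2 and 4 it was 1.01. Noc2l, which shuttles with pre-ribosomes and also binds histones, was at 16.4, 20.6, 18.8, 18.1 and 18.6 CPM in fed and 26.9, 77.3, 27.2, 49.3 and 30.3 CPM in starved libraries. Library 2 stood highest by a wide margin, and the log2 fold change was 1.19 ± 0.27 (SE) with all libraries and 0.62 without starved libraries 2 and 4. Samd11 on the opposite strand covers 20.9% of its exon bases. Rrs1, which helps to load the smallest ribosomal RNA of the large subunit, was at 4.81, 4.14, 4.63, 4.75 and 5.64 CPM in fed and 7.66, 16.4, 6.10, 9.61 and 8.52 CPM in starved libraries and rose by 1.01 ± 0.24 (SE; 0.65 without libraries 2 and 4). Gnl2 lies on chromosome 4 (125016585 to 125055380) and Rrs1 on chromosome 1 (9545408 to 9547455, mm10).

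Rrp1 and Rrp1b are related proteins, and their levels differed widely. Rrp1, the most abundant of these 15 per exon length (12.8 ± 1.25 CPM per kb in fed liver, SD, n = 5), was at 39.3, 48.5, 45.6, 40.8 and 39.4 CPM in fed and 53.03, 71.5, 52.6, 55.6 and 55.6 CPM in starved libraries. It rose by 0.43 ± 0.11 (SE) without overlap. Rrp1b, which was at 0.588 ± 0.146 CPM per kb in fed liver, had 3.69, 5.80, 4.41, 5.54 and 3.22 CPM in fed and 5.02, 26.2, 3.69, 7.26 and 4.87 CPM in starved libraries. Starved library 2 alone was high, the others lay in or near the fed range, and the difference was not called (1.04 ± 0.49, SE; adjusted p = 0.109, edgeR) and was 0.015 without libraries 2 and 4.

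Nol9, the polynucleotide kinase that acts on the cut precursor, was at 15.98, 19.8, 16.4, 18.7 and 15.3 CPM in fed and 20.2, 34.8, 19.03, 32.01 and 20.2 CPM in starved libraries. The groups overlapped, and the call (0.55 ± 0.18, SE) was lost without starved libraries 2 and 4 (0.22) and on leaving out fed library 1, 3, 4 or 5 or starved library 4. The other 10 rose and were called also without libraries 2 and 4: Nol8 (0.91 ± 0.22, SE), the GTPases Gnl3, known as nucleostemin (0.84 ± 0.16), and Gtpbp4 (0.71 ± 0.19), Nip7 (0.72 ± 0.19), the helicase Ddx18 (0.69 ± 0.12), Rrp15 (0.67 ± 0.16), the RNA methyltransferase Nop2 (0.59 ± 0.15), the Noc2l partner Noc3l (0.57 ± 0.16), Nop16 (0.49 ± 0.10) and Rrp1. Nol8, Ddx18, Nop2 and Noc3l were highest in starved library 4 and Nop16 in starved library 1, so the order of the starved libraries was not the same for all factors. Among the starved libraries, library 2 was the highest for 36 of the 53 factors, library 4 for 14 and library 1 for 3, and library 3 was the lowest for 28.

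**Figure D4:**
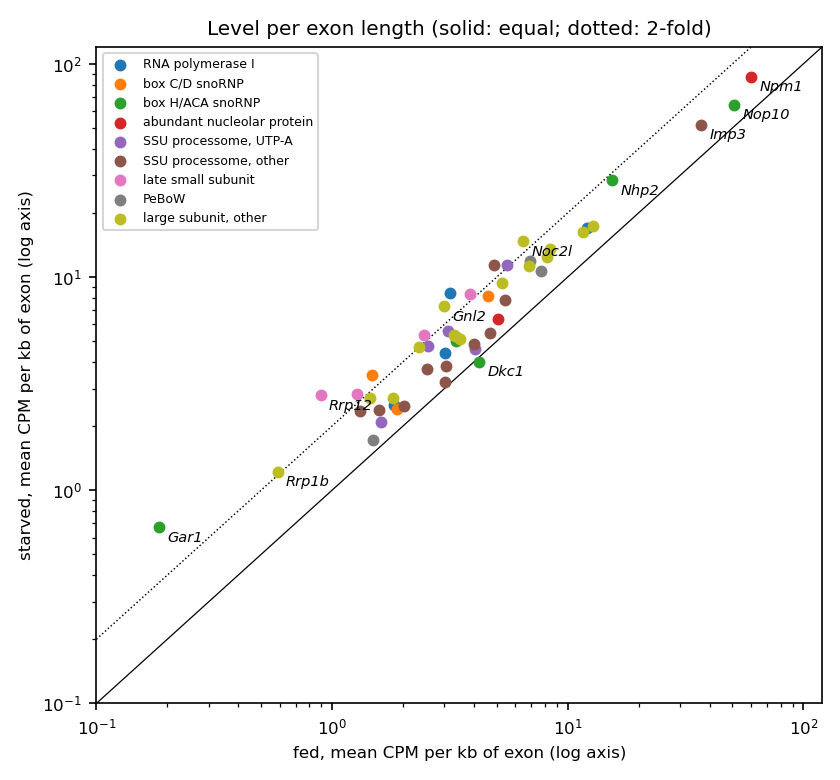
Mean level of each factor in fed (horizontal) and starved liver (vertical) in CPM per kb of exon, both axes logarithmic, coloured by role; the solid line marks equal levels and the dotted line a 2-fold rise. By this measure Npm1, Nop10 and Imp3 are the most abundant and Gar1, Rrp1b and Rrp12 the least. Points on or near the dotted line are found at low and middle levels, not among the 3 most abundant.

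The rest of the pathway was read from 119 further genes, listed by function, of which 118 passed the low-count filter. Of these, 68 rose and 1 fell, with a median log2 fold change of 0.48. Over all genes tested, 18.6% were called higher and 20.0% lower. By function, 7 of 13 genes of RNA polymerase I and its factors rose, 8 of 14 of snoRNP assembly and RNA modification, 18 of 34 of the SSU processome and small subunit, 28 of 43 of the large subunit and 7 of 14 of the exosome and RNA decay. Nle1, a factor of large subunit maturation, stood first, with means of 1.93 ± 0.358 CPM in fed liver and 10.8 ± 8.26 CPM after starvation (SD, n = 5; log2 fold change 2.48 ± 0.43, SE). Npm3, a relative of nucleophosmin (8.42 ± 0.937 to 24.4 ± 14.8 CPM, 1.54 ± 0.33), and Ppan, of large subunit maturation (7.76 ± 1.02 to 18.7 ± 11.9 CPM, 1.27 ± 0.33), followed. The starved spread of Nle1, Npm3 and Ppan was wide, and their values without starved libraries 2 and 4 are not given here. Pih1d1, of the complex that assembles snoRNPs, was the gene that fell (38.5 ± 3.54 to 30.4 ± 3.72 CPM, −0.34 ± 0.11). This call was lost without starved libraries 2 and 4, where 66 genes of the list rose and 0 fell. In that fit 20.2% of all genes tested were called higher and 20.7% lower.

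**Figure D5:**
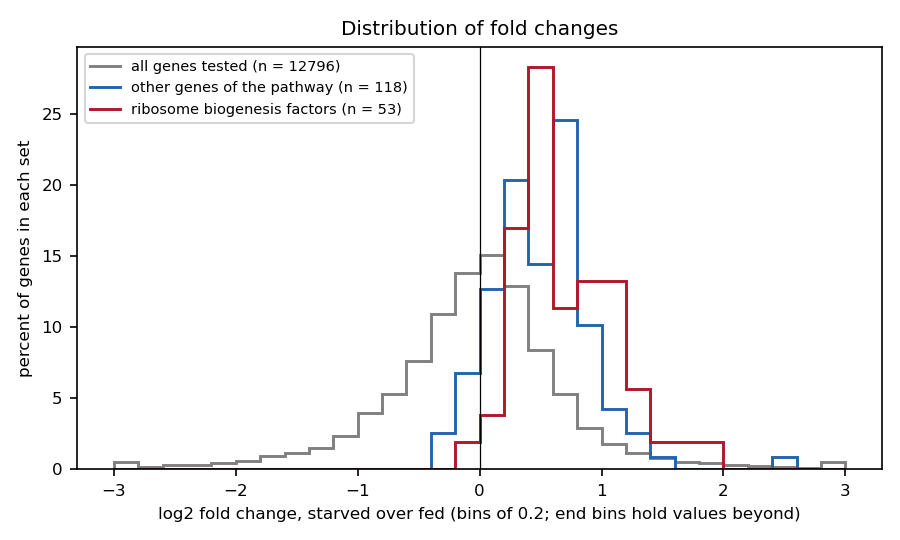
Share of genes (vertical axis, percent of each set) by log2 fold change (horizontal axis, bins of 0.2) for the 53 factors, 118 other genes of the pathway and all 12796 genes tested. The factors and the rest of the pathway centre at 0.59 and 0.48, and all genes near 0.

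Upstream sequence was available in RefSeq's promoter table (GRCm38.p6) for 46 of the 53 factors. Among the 250 bases before the start, the E-box CACGTG, a palindrome and the site that MYC and related factors recognise, was found in 4 of these 46 (8.70%), against 9.95% of 9505 tested genes. The ETS core CCGGAAG, searched on both strands, was found in 12 (26.1%), against 15.2%. The GC box GGGCGG was found in 69.6% against 62.3%, CCAAT in 32.6% against 40.6% and TATAAA in 6.52% against 8.51%, each on both strands. A match is a string and not a bound site. The 120 bases before RefSeq's start are shown for Nop2 and Utp18, which hold both of the first pair of strings within the window, for Nip7, which holds the ETS core alone, and for Nol11, which holds the E-box alone. Capitals mark CACGTG and CCGGAAG.
Nop2 (chr6:125131763-125131882): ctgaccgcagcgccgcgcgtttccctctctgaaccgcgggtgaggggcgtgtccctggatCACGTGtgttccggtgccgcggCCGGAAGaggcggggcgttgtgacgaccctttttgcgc
Utp18 (chr11:93885767-93885886): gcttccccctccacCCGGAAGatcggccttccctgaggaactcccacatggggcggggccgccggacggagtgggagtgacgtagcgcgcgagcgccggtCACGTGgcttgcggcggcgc
Nip7 (chr8:107056757-107056876): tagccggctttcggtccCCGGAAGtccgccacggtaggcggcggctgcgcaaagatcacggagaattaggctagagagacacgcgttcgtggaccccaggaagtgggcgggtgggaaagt
Nol11 (chr11:107189382-107189501): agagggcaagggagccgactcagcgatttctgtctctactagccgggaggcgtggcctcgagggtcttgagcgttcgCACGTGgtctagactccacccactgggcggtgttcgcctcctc
The strand of Nop2 and Nip7 is plus and that of Utp18 and Nol11 minus, and each sequence reads towards its gene. In Nop2 the E-box begins 60 and the ETS core 38 bases before the start, in Utp18 20 and 106 bases before it. Nop2, Utp18 and Nip7 rose and Nol11 was not called. The 4 factors with an E-box had a median log2 fold change of 0.43, with 3 called higher, and the 42 without had 0.68, with 32 called higher. For the ETS core the medians were 0.66 over 12 factors with it (10 called higher) and 0.61 over 34 without (25 called higher).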

How the data were processed

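Reads were counted per gene symbol by the authors, and the deposited values are raw counts, 1 table per library. Per the submitters' processing notes, the tools were HTSeq, TopHat2 2.0.0 with Bowtie2 2.0.0, CASAVA 1.8.2 and edgeR 3.6.4, on the build mm10. Per the labels' protocols, total RNA went into a TruSeq kit that keeps the strand. Which annotation and strand setting the counting used is not given in the sources used here. Rows that name no gene were left out of library sizes and tests: multi-mapped reads made up 46.4% to 48.1% of all tallied reads in fed and 38.6% to 48.4% in starved libraries, and reads outside genes 15.96% to 21.3% and 17.1% to 24.7%.

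From these counts, genes with low counts were removed with filterByExpr, libraries were scaled by TMM, and fed and starved livers were compared with edgeR 4.0.16 (R 4.3.3, quasi-likelihood test, 5 against 5 libraries, no covariate), with Benjamini-Hochberg adjustment over all genes tested. The SE is the log2 fold change divided by the square root of the F statistic. The same steps were tested on simulated data. Alternatives were DESeq2 1.42.0 (size factors, and its own Wald test), library totals alone, other low-count filters, a replicate block, and leaving out each library or starved libraries 2 and 4 together. The members and lists were chosen with earlier results of these data known. All 53 factors are named, and values in every library are given for the 3 called factors of each role group with the largest change, for the factor with the most reads per kilobase of exon in it, and for those whose call is lost without starved libraries 2 and 4, with a few more added after their values were seen. The 12 ratios used log2(count + 0.5). The libraries are taken as 1 mouse each, and if they share more than that, p-values measure only the spread between these samples. Same-numbered fed and starved libraries had deviations from their group means that correlated at −0.06 to 0.23, over 0.1 in 1 of 5 pairs, so the numbers were not taken to pair the mice. Coordinates and exon lengths are from GENCODE M21 (GRCm38, mm10), matched by symbol, and upstream sequences from RefSeq (GRCm38.p6). Exon length is the union of all annotated exons of a gene, so levels per kb and their ranks depend on which transcripts are annotated. Ncl, with 51.6 CPM in fed liver and 10188 exon bases, ranked 17 of 53 per kb.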

Additional observations from a re-analysis of the deposited data

Results flagged for a closer look

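In 13 of 106 groups of 5 libraries (each factor in fed and in starved liver), 1 library stood apart from the other 4 by Dixon's criterion at the 95% level. Chance flags about 1 in 20 groups, but these groups share the same 10 libraries and are not independent. The share of all genes flagged is not given here, so whether the flags are particular to the factors cannot be told. Starved library 2 was the high one for Dkc1 (21.6 CPM against 14.6 to 16.1 in the others), Nol6 (31.9 against 14.6 to 19.2), Imp4 (36.9 against 30.9 to 32.6), Nip7 (56.4 against 26.8 to 33.6), Rrp1 (71.5 against 52.6 to 55.6), Rrp1b (26.2 against 3.69 to 7.26) and Rrp15 (24.7 against 13.7 to 16.9). Starved library 4 was the high one for Polr1a (39.4 CPM against 25.9 to 29.2), Polr1c (44.9 against 35.9 to 38.3), Utp18 (36.6 against 24.7 to 27.0) and Noc3l (15.1 against 9.15 to 10.1). In fed liver, library 5 was high for Gar1 (0.644 CPM against 0.211 to 0.275) and low for Nol10 (3.30 CPM against 4.00 to 4.27).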

How the results depend on the processing

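The number of factors called higher was 41 and stayed between 31 and 43 under all alternatives, with 0 called lower under each, by edgeR or DESeq2. The number was 42 with DESeq2's size factors (19.8%), 43 with its Wald test (22.3%) and 40 without a low-count filter (13.2%). It was 40 when genes needed 1 CPM in at least 5 libraries (18.9%) and 38 without starved libraries 2 and 4 (20.2%). On leaving out each library in turn it was 36 to 42 (14.5% to 21.4%). In brackets is the share of all genes tested that the same fit called higher. Library totals alone gave 31, where 11.6% of all genes tested were called higher. The calls of Polr1a, Polr1c, Fbl, Nolc1, Npm1, Imp3, Imp4, Noc4l, Nol9 and Noc3l were lost. The median was then 0.45, and 23 factors were without overlap. The share of all genes without overlap under this scaling is not given here. Over all genes 1490 were called higher, and the cause of these changes was not tested. Of the 41 calls, 36 held on leaving out any single library, and those of Fbl, Nolc1, Nol9, Noc4l and Polr1b did not. With a replicate block 40 factors were higher, with Fbl, Imp3 and Noc4l lost and Nop10 and Nol6 gained, 2029 genes were higher and 2381 lower over all genes, and 1 of 5 fed libraries correlated best with the starved library of its own number. Of the other genes of the pathway, 0 were called lower without starved libraries 2 and 4 and 0 to 1 on leaving out each library. These tests had fewer samples. Over all genes 2705 of 13080 were called lower without starved libraries 2 and 4, and 2555 of 12796 with all libraries. Why the call of Pih1d1 was lost was not tested. Direction turned for Bms1 (−0.053 with library totals alone), Rrp9 (−0.026 without starved libraries 2 and 4), the ratio of Polr1a to Polr1b (0.018 without starved libraries 2 and 4; −0.11 to 0.045 on leaving out each library, above 0 without starved library 2) and that of Nop14 to Noc4l (−0.016 to 0.17 on leaving out each library, below 0 without starved library 4), none of them called; the cause was not tested. The ratio of Nop58 to Fbl was 0.57 without starved libraries 2 and 4 (adjusted exact permutation p = 0.0714) and 0.67 to 0.92 on leaving out each library; that of Nhp2 to Dkc1 was 0.90 (adjusted exact permutation p = 0.0714) and 0.88 to 1.01. Without starved libraries 2 and 4 both were at the smallest p that 5 against 3 libraries allow (exact permutation p = 0.0179), so the adjusted p there says nothing about stability. At 6 to 16 reads per fed library, the size of the change in Gar1 is the least precise.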

Other observations

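Of the 53 factors, 12 (22.6%) have a protein-coding neighbour that starts within 1000 bases in the opposite direction (GENCODE, mm10), against 10.1% of tested protein-coding genes and 25.9% of the other genes of the pathway. The factors lie on 18 chromosomes. The ETS core CCGGAAG was found in the promoters of 33.0% of 94 other genes of the pathway, and the E-box CACGTG in 9.57%.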
